A study of Mus musculus with 4 samples.

Results

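Peaks of H3K27me3 that were called on the autosomes of 500 erythro-myeloid progenitors (EMPs) and had no counterpart in the list from 15000 EMPs are described here. They were chosen by the deposited peak positions alone. A 500-EMP peak on chromosomes 1 to 19 was taken where no 15000-EMP peak overlapped it by at least 1 bp. The rule held for 788 of the 9995 autosomal 500-EMP peaks, or 7.88%, and the list held 10223 peaks on all chromosomes. These 788 are called unmatched peaks and the other 9207 autosomal 500-EMP peaks are called matched peaks. Of the unmatched peaks, 458 had a 15000-EMP peak within 1 kb (58.1%, 95% Wilson interval 54.6% to 61.5%) and 330 lay farther away. Absence from the 15000-EMP list defined these peaks and is therefore no finding.

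H3K27me3 was profiled by CUT&RUN, in which an antibody directs a nuclease to its target and the released DNA is sequenced, in EMPs of the mouse yolk sac at E10.5 of embryonic development. The mice were C57BL/6, and the label that all 4 libraries share gives Ezh2fl/fl and Tie2-Cre+/+ beside the words wild type. The cells were taken as wild type, as in the study, and Tie2-Cre, where it is active, acts in endothelial cells and in the blood cells that arise from them. Each cell number had 1 H3K27me3 library and 1 IgG library, which served as the background in peak calling, and the number of embryos behind a library is not given in the sources used here. Libraries of 500 EMPs were amplified with 17 PCR cycles and read at 76 bp, those of 15000 EMPs with 16 cycles and 59 bp, on different instruments, and the p threshold for peaks was 0.01 for 500 EMPs and 0.05 for 15000 EMPs. Per the study, sequencing depth and alignment rate were lower for 500 EMPs. Cell number, PCR cycles, depth, alignment rate, read length, instrument and threshold cannot be told apart. With 1 library per cell number there was no test between libraries. The intervals given cover counting error only and treat neighbouring peaks as independent.

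H3K27me3 is written by the Polycomb complex whose catalytic subunit is Ezh2. It lies over broad domains around the CpG-rich starts of developmental genes that are silent in a given cell, such as Hox genes and other transcription factors of body patterning. EMPs emerge from hemogenic endothelium of the yolk sac and give rise to erythroid and myeloid cells.

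Some unmatched peaks lay in sequence that occurs many times in the genome, and others in sequence found once. Examples of each are shown first, in GRCm38.p6 on the plus strand, because several results turn on this contrast. Repeated sequence is shown by an array of 5S ribosomal RNA genes on chromosome 8, which held 8 unmatched peaks. The peak at chr8:123608162-123608435 covered 116 bases of the gene n-R5s141, which lies on the minus strand and is in capitals.
chr8 5S array: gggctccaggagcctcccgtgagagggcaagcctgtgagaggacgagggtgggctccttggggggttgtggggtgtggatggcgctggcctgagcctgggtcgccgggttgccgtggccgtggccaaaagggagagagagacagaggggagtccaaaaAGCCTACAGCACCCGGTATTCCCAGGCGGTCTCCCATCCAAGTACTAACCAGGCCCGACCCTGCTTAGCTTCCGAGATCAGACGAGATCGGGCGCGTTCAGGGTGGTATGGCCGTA

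In the following peaks no word of 59 bases occurred elsewhere in the genome, and CpG dinucleotides are in capitals. They stand for a peak beside a developmental gene with a 15000-EMP peak close by (Ptf1a, chr2:19445428-19445564, and Wnt5b, chr6:119545228-119545502), for a gene that no 15000-EMP peak named within 3 kb (Cd3d, chr9:44981453-44981589) and for the unmatched peak farthest from the 15000-EMP list (chr15:61545487-61545623). The Ptf1a and Wnt5b sequences were picked after their values had been seen.
Ptf1a: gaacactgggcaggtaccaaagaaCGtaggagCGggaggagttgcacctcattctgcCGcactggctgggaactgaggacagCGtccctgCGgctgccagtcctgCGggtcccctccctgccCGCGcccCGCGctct
Wnt5b: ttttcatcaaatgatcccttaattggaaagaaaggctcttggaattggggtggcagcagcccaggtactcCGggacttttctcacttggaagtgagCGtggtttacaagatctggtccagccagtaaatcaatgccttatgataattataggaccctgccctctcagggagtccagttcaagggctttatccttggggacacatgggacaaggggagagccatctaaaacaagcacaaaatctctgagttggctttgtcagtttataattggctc
Cd3d: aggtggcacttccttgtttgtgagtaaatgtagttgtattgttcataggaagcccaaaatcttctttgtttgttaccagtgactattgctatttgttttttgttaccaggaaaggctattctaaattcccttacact
chr15 farthest: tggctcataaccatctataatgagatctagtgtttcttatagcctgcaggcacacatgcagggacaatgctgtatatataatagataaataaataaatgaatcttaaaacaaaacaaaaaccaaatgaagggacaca
The Ptf1a peak held 10 CpG dinucleotides in 137 bases and the Wnt5b peak 2 in 275, whereas the other 2 held 0.

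Unmatched peaks were narrow. The smallest width in the 500-EMP list was 137 bp, and 398 of the 788 unmatched peaks had exactly this width (50.5%, interval 47.0% to 54.0%), against 1274 of 9207 matched peaks (13.8%) and 16.7% of all autosomal 500-EMP peaks. Their median width was 137 bp, with quartiles of 137 and 254 bp, and that of matched peaks was 397 bp, with quartiles of 209 and 736 bp. Widths differed little between the unmatched peaks near a 15000-EMP peak (median 139 bp) and those farther away (median 137 bp). Width bears on whether a peak can overlap another, so it is tied to the rule and is given as a description. Of all autosomal 500-EMP peaks, 23.8% of those of 137 bp were unmatched, 11.1% of those of 138 to 250 bp, 6.32% of those of 251 to 500 bp and 0.723% of those of 501 to 1000 bp (16 of 2214). Among the 1458 peaks wider than 1000 bp there were 0, with a Wilson interval up to 0.263%.

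**Figure D1:**
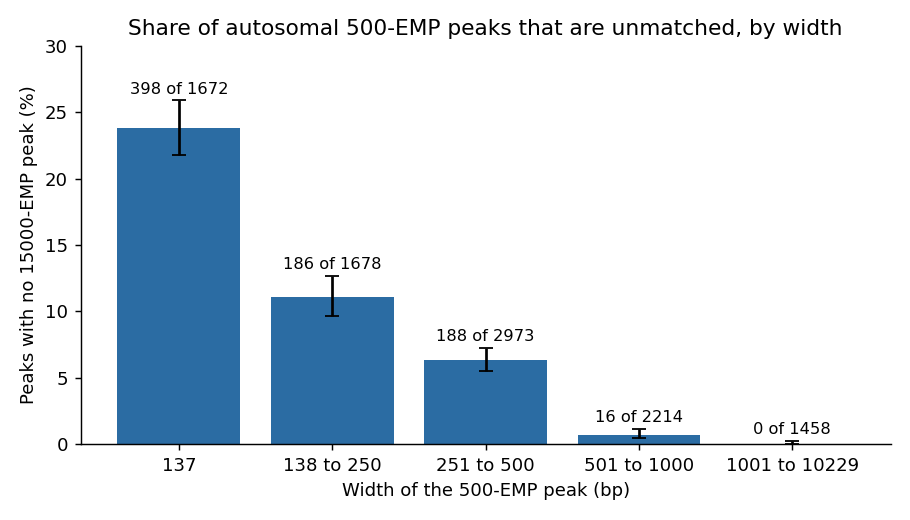
Share of autosomal 500-EMP peaks with no 15000-EMP peak (y axis, %) in 5 classes of peak width (x axis, bp), with 95% Wilson intervals as error bars and the counts above them. The share falls from 23.8% at 137 bp to 0 of 1458 above 1000 bp.

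The widest unmatched peak spanned 879 bp in an intron of Zfp507, a zinc finger gene on chromosome 7, at 2126 bp from the nearest 15000-EMP peak. It was followed by 778 bp across the start of Cpa5, a carboxypeptidase gene on chromosome 6, and by 734 bp in an intron of Igsf21, an immunoglobulin superfamily gene on chromosome 4 with a 15000-EMP peak at 620 bp. The 10 widest near a 15000-EMP peak ran from 521 to 734 bp and lay, among others, in the 3' UTR of Scarf2 (686 bp), in a coding exon of Ltbp4 (638 bp, 73 bp from a 15000-EMP peak), in introns of Th (590 bp) and Kank1 (562 bp), in the 3' UTR of Slc4a3 (540 bp) and downstream of Pitx1 (521 bp). Th encodes tyrosine hydroxylase, the first enzyme of catecholamine synthesis, and Pitx1 a homeodomain factor of hindlimb and pituitary. The 10 widest farther than 1 kb ran from 455 to 879 bp and included introns of Slc36a2 (495 bp), Adprhl1 (461 bp) and Dlg5 (455 bp). Of these 10, the Slc36a2 peak, at 140030 bp, and a peak upstream of 4930467E23Rik, at 166833 bp, were the only ones more than 100 kb from a 15000-EMP peak.

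Distances to the 15000-EMP list ran from 0 to 1761352 bp. The median distance was 678 bp, with quartiles of 158 and 3855 bp. It was 228 bp among the 458 near peaks, of which 145 lay within 100 bp, and 7630 bp among the other 330. At the edge of the rule, the unmatched peak with the smallest distance, 0 bp, touched a 15000-EMP peak without sharing a base (chr13:56291750-56291886, named with Cxcl14), and the next ones lay 3 bp (Duoxa2, Gbp6 and Wnt5b) and 4 bp (Pax2) away, while matched peaks with the smallest overlap shared 1 bp (Usp6nl), 2 bp (Cfap299), 3 bp (Fbxl16 and Mapk4) and 4 bp (4930413E15Rik). At the 1 kb limit the nearest values were 991 and 992 bp on the near side and 1015 and 1016 bp on the far side.

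**Figure D2:**
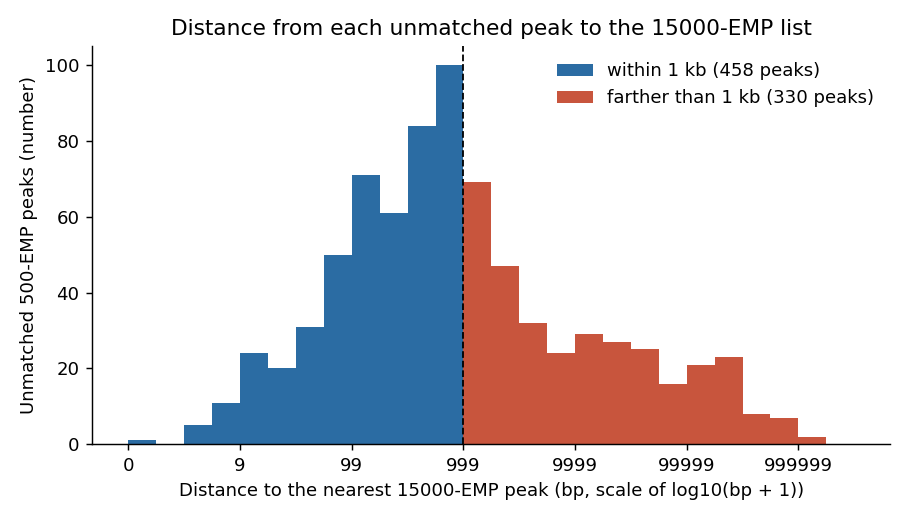
Number of unmatched 500-EMP peaks (y axis) by distance to the nearest 15000-EMP peak (x axis, bp, on a scale of log10 of the distance plus 1), with the 458 peaks within 1 kb in blue and the 330 farther away in red, and the 1 kb limit as a dashed line. The distances form one continuous spread with a median of 678 bp, and the limit lies within it.

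Some near peaks lay in a break between 15000-EMP peaks. A 15000-EMP peak was within 1 kb on both sides for 161 of the 458 (35.2%). The space between those flanking peaks had a median of 717 bp, with quartiles of 411 and 1061 bp, and the unmatched peak in it a median width of 146 bp. The nearest 15000-EMP peak of a near peak was 908 bp wide at the median, against 778 bp for all 14959 autosomal 15000-EMP peaks. It overlapped another 500-EMP peak for 167 of the 458 (36.5%), and 32.4% of all autosomal 15000-EMP peaks did so. Another 500-EMP peak lay within 1 kb of 119 near peaks (26.0%).

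Of the 330 peaks beyond 1 kb, 111 lay 1 to 3 kb from a 15000-EMP peak, 61 at 3 to 10 kb, 97 at 10 to 100 kb and 61 beyond 100 kb. Another 500-EMP peak lay within 1 kb of 4 (1.21%), and 151 (45.8%) had no other peak of either list within 10 kb. Both counts are tied to the split at 1 kb, because 9207 of the 9995 autosomal 500-EMP peaks overlapped a 15000-EMP peak. They are given as a description. The 5 farthest lay 1761352 bp (chr15:61545487-61545623, in the non-coding gene D030024E09Rik per the annotated table), 1310773 bp (chr10:37820398-37820539), 836858 bp (chr1:58613141-58613277, 17177 bp downstream of Ndufb3), 830786 bp (near the end of chromosome 18) and 825092 bp (chr8:68053388-68053524, in an intron of Psd3) from any 15000-EMP peak. Their widths were 137 to 205 bp, and the share of their bases that the reference marks as repeats, in lower case, ran from 38.0% to 100%.

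Unmatched peaks lay farther from genes than matched peaks. In the annotated table, 189 of the 788 (24%, interval 21.1% to 27.1%) had a gene within 3 kb, against 55.1% of matched peaks (54.1% to 56.1%) and 52.6% of all autosomal 500-EMP peaks. The share was 32.3% for near peaks and 12.4% (41 of 330) for those beyond 1 kb. Among peaks of 137 bp alone the difference remained, and the share was 24.9% for unmatched and 52.0% for matched peaks. A gene more than 50 kb away was named for 22.3% of unmatched and 7.32% of matched peaks. The distance in that table is not always measured from the transcription start site (TSS): the peak named with Ihh at 16 bp lay in its 3' UTR. Against the TSS of protein-coding genes in GENCODE, 18.5% of unmatched peaks were within 3 kb (26.2% of near peaks and 7.88% of those beyond 1 kb), compared with 46.4% of matched peaks and 44.2% of all autosomal 500-EMP peaks.

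By location category of the annotated table, 362 unmatched peaks were upstream of the gene named (45.9%, against 39.2% of matched peaks), 279 inside it (35.4% against 43.1%), 136 downstream (17.3% against 12.6%), 8 across a gene start (1.02% against 3.50%) and 3 across a gene end. In GENCODE, 404 lay between protein-coding genes (51.3%, against 43.8% of matched peaks), 317 in introns (40.2% against 36.6%), 30 in coding exons (3.81% against 10.3%), 22 in 3' UTRs, 6 in 5' UTRs and 9 across a TSS. Coding exons and gene starts thus held smaller shares of unmatched than of matched peaks. The share between genes was 57.3% for peaks beyond 1 kb (interval 51.9% to 62.5%) and 46.9% for near peaks (42.4% to 51.5%).

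**Figure D3:**
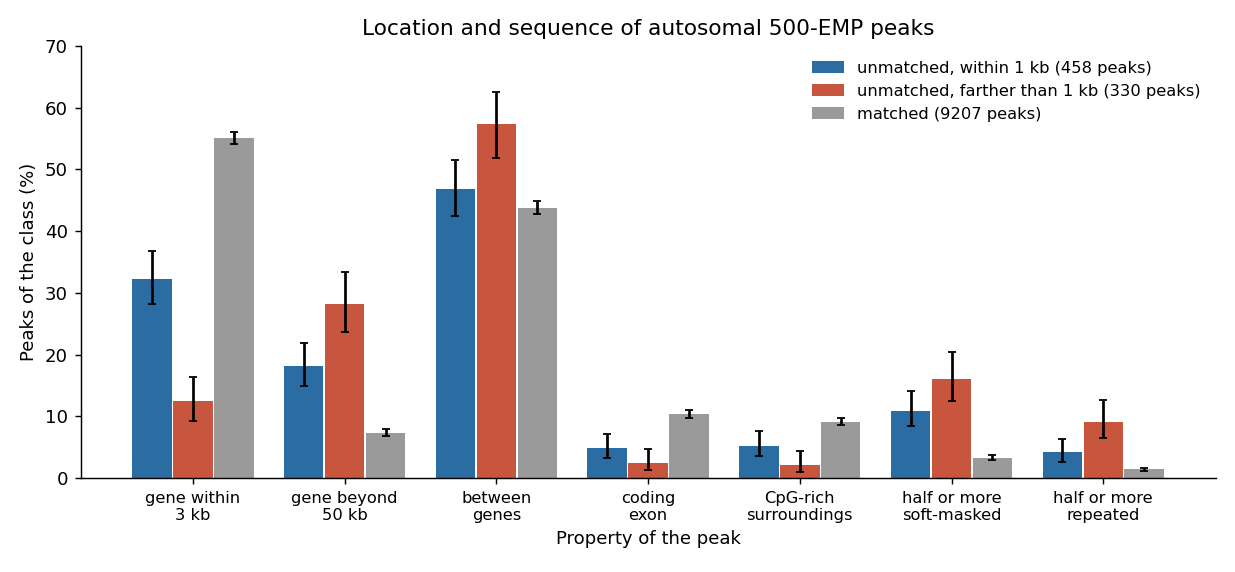
Share of peaks (y axis, %) with each of 7 properties of location or sequence, for unmatched peaks within 1 kb of a 15000-EMP peak (blue), unmatched peaks farther away (red) and matched peaks (grey), with 95% Wilson intervals as error bars. The 12.4% of far unmatched peaks with a gene within 3 kb stand against 55.1% of matched peaks, and the 9.09% with repeated sequence against 1.40%, where windows spaced along the genome, not drawn, gave 9.0%.

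The 8 peaks across a gene start belonged to Cpa5, Pcdhga9, Cnfn, Dynlt1a, Gpr27, Tmcc2, Rims2 and Ephb1. Those at Gpr27, an orphan G protein-coupled receptor, and Rims2, a scaffold of the presynaptic active zone, had a GC content of 79.9% and 68.6% and 15000-EMP peaks at 101 and 877 bp. The peak at Ephb1, a receptor for ephrins in axon guidance, had a 15000-EMP peak at 614 bp, and those at the protocadherin Pcdhga9 and at Cnfn, a gene of the cornified envelope, at 60 and 180 bp. The other 3 lay beyond 1 kb: Dynlt1a, a dynein light chain gene, at 1583 bp, Cpa5 at 3015 bp and Tmcc2 at 89949 bp. In the Dynlt1a peak 31.3% of the words of 59 bases occurred elsewhere in the genome, and the part of these copies in the peak was not tested. The Tmcc2 peak, chr1:132391220-132391356, was 137 bp wide with a GC content of 46.7%.

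Whether the genes beside unmatched peaks were also named in the 15000-EMP table is tied to the rule and is given as a description. Unmatched peaks named 190 genes within 3 kb, of which 164 (86.3%) were also named by a 15000-EMP peak within 3 kb and 107 had another 500-EMP peak. Of the 2372 genes within 3 kb of any autosomal 500-EMP peak, 2340 (98.7%) were so named. Within 3 kb, no gene was named by more than 2 unmatched peaks. The other 26 genes were not named within 3 kb in the 15000-EMP table, and 24 of them were named by peaks beyond 1 kb. This follows the gene that each table names for a peak and not position alone, and a 15000-EMP peak named with another gene can lie close by, as at 49 bp from the peak inside Tmem210. Of the 26, 8 were named in the 15000-EMP table at a greater distance, for example Cpa5 at 3122 bp, Mir335 at 3950 bp and Gnl2 at 6940 bp.

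The 26 genes belonged to no single class. Genes expressed in differentiated epithelia or muscle were Krt83, a hair keratin, Eppk1, which encodes epiplakin, and Hrc, a calcium-binding protein of the sarcoplasmic reticulum, with Cyp4f14, a cytochrome P450, Slc2a10, a glucose transporter, Lmtk3, a kinase gene, and Wdr72 besides. Cd3d encodes a subunit of the T cell receptor complex and Raet1c a ligand of the receptor NKG2D. By GENCODE some peaks lay in a gene other than the one named. Among these, the Ly6g6c peak lay in a coding exon of Mpig6b and the Raet1c peak in the 5' UTR of Raet1e. The Lmtk3 and Eppk1 peaks lay in introns of Sult2b1 and BC024139. In the Raet1c peak 96% of the words of 59 bases occurred elsewhere. Genes active in most cells were Polg, the mitochondrial DNA polymerase, Gnl2, a nucleolar GTPase, and Hnrnpa1, an RNA-binding protein of splicing. The remaining ones were the protocadherins Pcdhga12 and Pcdhgb1, the olfactory receptor Olfr331, Arhgef10, Ccdc61, Cpa5, Tmcc2, Tmem210, the microRNA gene Mir335 and the transcripts 1700049E22Rik, 4930512J16Rik, B230206H07Rik and Gm13446.

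Their peaks were 137 to 778 bp wide, and 3 examples show the range. The Cd3d peak, 137 bp, lay 195 bp upstream of the gene with a 15000-EMP peak at 2914 bp and a GC content of 35.8%. The Polg peak, 213 bp, lay 1035 bp upstream, 27089 bp from a 15000-EMP peak, at a GC content of 30.5%. The Olfr331 peak, 137 bp, lay 958 bp downstream of the gene and 446575 bp from a 15000-EMP peak, at 31.4%. The 2 genes near a 15000-EMP peak were Ly6g6c (230 bp) and Tmem210 (49 bp).

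Hox genes and developmental transcription factors, known targets of Polycomb, made up a smaller share of the unmatched peaks than of all 500-EMP peaks. Of 39 Hox genes, 38 had some 500-EMP peak within 3 kb and 1, Hoxb2, had an unmatched peak, so that Hox genes accounted for 0.127% of unmatched peaks and 1.11% of all autosomal 500-EMP peaks. The Hoxb2 peak was 462 bp wide and lay 524 bp from a 15000-EMP peak. Without the 3 kb limit, 4 unmatched peaks named a Hox gene (0.508%, against 1.78% of all). Of 154 developmental transcription factors, 147 had some 500-EMP peak and 7 an unmatched one, 0.888% of unmatched peaks (interval 0.431% to 1.82%) against 6.15% of all. They included Ptf1a, a factor of pancreas and cerebellum, with an unmatched peak 97 bp upstream, Sim2 and Alx4 and, named in addition to the 4 nearest, Foxf2, Isl1 and Tfap2b. At any distance, 52 unmatched peaks named a gene of this list (6.60%, against 14.1% of all). Each of the 7 also had 15000-EMP peaks within 3 kb, 1 to 7 in number, and 6 of the 7 unmatched peaks were near peaks, at 12 bp (Sim2) to 374 bp (Tfap2b), with Isl1 at 1305 bp as the exception. These genes were thus marked in both libraries, and their unmatched peaks were additional ones.

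Unmatched peaks within 3 kb of signalling and neural genes were few in number. In the Wnt pathway list, 2 of 62 genes had an unmatched peak, the ligand genes Wnt5b (275 bp wide, 3 bp from a 15000-EMP peak) and Wnt10b (137 bp wide, at 980 bp), 0.254% of unmatched peaks against 1.03% of all. The list of BMP, FGF, hedgehog and retinoic acid signalling gave 3 of 60 genes: Ihh, a hedgehog ligand, Fgfr4, an FGF receptor, and Fgf3, an FGF ligand (0.381% against 0.820%). Axon guidance and neural adhesion gave Ephb1 and Sema6d (0.254% against 0.730%), and ion channels and neurotransmitter receptors gave the potassium channel genes Kcnh1 and Kcnj4 (0.254% against 1.45%). The intervals of the BMP list (0.13% to 1.11%) and the axon guidance list (0.0696% to 0.921%) held the shares over all peaks. At any distance the shares lay closer together, at 0.761% against 1.45% for the Wnt list, 0.888% against 1.16% for the BMP list, 1.14% against 1.57% for axon guidance and 1.52% against 2.05% for ion channels. Among 33 genes of Polycomb components, Ezh1, the homolog of Ezh2, had an unmatched peak of 431 bp at 1479 bp upstream and a 15000-EMP peak at 881 bp from it. This list made up 0.127% of unmatched and 0.13% of all autosomal 500-EMP peaks. All 10 genes named here had at least 1 15000-EMP peak within 3 kb.

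Lists of blood and vessel genes had no unmatched peak within 3 kb by the gene named. They do not hold every blood gene, and Cd3d, with an unmatched peak 195 bp upstream, was not among them. The count was 0 for 60 endothelial genes, where all autosomal 500-EMP peaks gave 56, and 0 for 56 hematopoietic genes, where they gave 20. The Wilson interval of 0 of 788 reaches 0.485%, whereas the shares over all peaks were 0.560% and 0.200%. Imprinted genes likewise gave 0 by the gene named, with 14 over all peaks (0.14%). The peak named with Mir335 lay in an intron of Mest in GENCODE, which this count does not consider. At any distance the unmatched peaks named with these lists numbered 6 for endothelial genes (0.761% against 1.01% of all peaks), 2 for hematopoietic genes (0.254% against 0.54%) and 3 for imprinted genes (0.381% against 0.36%). Of the 22 housekeeping genes, Hnrnpa1 was the only one with a 500-EMP peak of any kind, and this peak (chr15:103245547-103245829, 283 bp, 65332 bp from a 15000-EMP peak) was unmatched. The list thus made up 0.127% of unmatched and 0.01% of all autosomal 500-EMP peaks. The annotated table placed this peak inside the gene at 862 bp, whereas GENCODE placed it between protein-coding genes, 5115 bp from the Hnrnpa1 TSS. Peak lists hold no expression values, so the label of the cells could not be checked against EMP markers here.

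The sequence of unmatched peaks was less rich in GC and CpG than that of matched peaks. Median GC content was 47.0% for unmatched peaks (47.5% near, 46.0% beyond 1 kb), 49.5% for matched peaks and 41.6% for 23966 windows of 137 bp spaced every 100 kb along the autosomes. The ratio of observed to expected CpG had medians of 0.18, 0.289 and 0.142 in the same order. Among peaks of 137 bp alone, GC content was 46.7% for unmatched and 49.6% for matched peaks. Surroundings of 500 bp with a GC content of at least 50% and a CpG ratio of at least 0.6 were found at 31 unmatched peaks (3.93%, interval 2.79% to 5.53%), 9.15% of matched peaks and 0.663% of windows. Unmatched peaks thus lay between matched peaks and the genome at large in all of these measures.

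Short motifs were counted on both strands in the central 137 bp of each peak. CGCG, which by its letters overlaps CpG content, occurred in 35 unmatched peaks (4.44%, with 6.55% of near peaks and 1.52% of those beyond 1 kb), 9.82% of matched peaks and 1.48% of windows. GGGGG occurred in 18.7%, 25.2% and 13.8%. A CA repeat, CACACACACACA, occurred in 1.27%, 1.35% and 2.30%, and a GA repeat, GAGAGAGAGAGA, in 0.635%, 0.706% and 1.01%. A perfect tandem repeat of at least 20 bp with units of up to 6 bases, which overlaps with these 2 motifs, was found in 4.06%, 1.98% and 3.99%.

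Repeated sequence was more common among unmatched peaks than among matched ones. At least 50% of bases were marked as repeats in 103 unmatched peaks (13.1%, 16.1% of those beyond 1 kb), 3.30% of matched peaks, 4.07% of all autosomal 500-EMP peaks and 28.7% of windows. To ask where a read could have come from more than 1 place, every word of 59 bases, the shorter read length, was counted in the whole reference. In 49 unmatched peaks at least 50% of the words occurred elsewhere (6.22%, interval 4.74% to 8.13%), against 129 matched peaks (1.40%, 1.18% to 1.66%), 1.78% of all autosomal 500-EMP peaks and 9.0% of windows. The share was 4.15% near and 9.09% beyond 1 kb, the latter close to that of the windows. With words of 76 bases, the longer read length, it was 41 unmatched peaks (5.20%) and 1.17% of matched peaks, and among peaks of 137 bp alone it was 5.28% and 1.49% with 59 bases. Conversely, 674 unmatched peaks (85.5%) held no word of 59 bases that occurred elsewhere, against 91.1% of matched peaks and 78.5% of windows. Whether reads were shared among copies was not tested, since the files hold no reads.

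Of the 49 repeated peaks, 17 had a median of 2 copies per word, 28 had 3 to 49 and 4 had 50 or more. For 26 of them all other copies lay within 1 Mb on the same chromosome. Highest in number were a peak at chr11:19090444-19090580, with a median of 4186 copies, and peaks near the ends of chromosome 7 (1925 copies) and chromosome 18 (1924 copies). These 26 include all 11 peaks of the tandem array on chromosome 6.

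Runs of 3 or more, each within 100 kb of the next, numbered 37 and held 153 unmatched peaks (19.4%), and the same was not computed for matched peaks. Of the 5 densest, 4 are described. A run of 4 within 9953 bp lay on chromosome 17, beginning in a coding exon of Camkmt and named with Six3, a factor of eye and forebrain that lies 145858 to 155380 bp away. Next came 3 at Npas4, an activity-induced factor of neurons, 3 in introns of the teneurin gene Tenm4, and 3 at Hoxb3 and Hoxb2. All peaks of these 4 runs had a median of 1 copy per word of 59 bases, and all were near peaks except 2 at Npas4.

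The runs in which every unmatched peak was mostly repeated sequence were an array on chromosome 6 and the 5S array on chromosome 8, and they were singled out after their values had been seen. Peaks within an array share sequence and are not independent of each other. The chromosome 6 array, of 148785 bp, lies between Hrh1, a histamine receptor gene, and Atg7, an autophagy gene, and GENCODE places no protein-coding or rRNA gene in the span of the 11 peaks. Copies of its words that lay close to each other were spaced by a median of 2430 bp, with wider gaps left out of the median. All copies had the same orientation, and none occurred on another chromosome. All 11 of its 500-EMP peaks were unmatched and beyond 1 kb, and it held 1 15000-EMP peak, 3621 bp from the first of them. Median copy number per peak was 17 to 45. By shared words the 11 peaks formed 5 groups, the largest with 4 peaks, so that several peaks covered the same sequence in different copies.

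The chromosome 8 array, chr8:123537896-123623800, held 51 annotated 5S ribosomal RNA genes, with copies spaced by a median of 1700 bp, again without the wider gaps. Here both lists had peaks: 29 from 500 EMPs, of which 8 were unmatched, and 45 from 15000 EMPs. The 8 unmatched peaks lay 55 to 1570 bp from a 15000-EMP peak, had 39 to 49 copies per word at the median and, in 3 cases, overlapped a 5S gene, by 5, 6 and 116 bases. By shared words they formed 3 groups, the largest with 6 peaks. The 15000-EMP list thus had peaks along the 5S array and 1 peak in the chromosome 6 array. This contrast is tied to the rule, which took peaks without a 15000-EMP peak, and is given as a description.

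**Figure D4:**
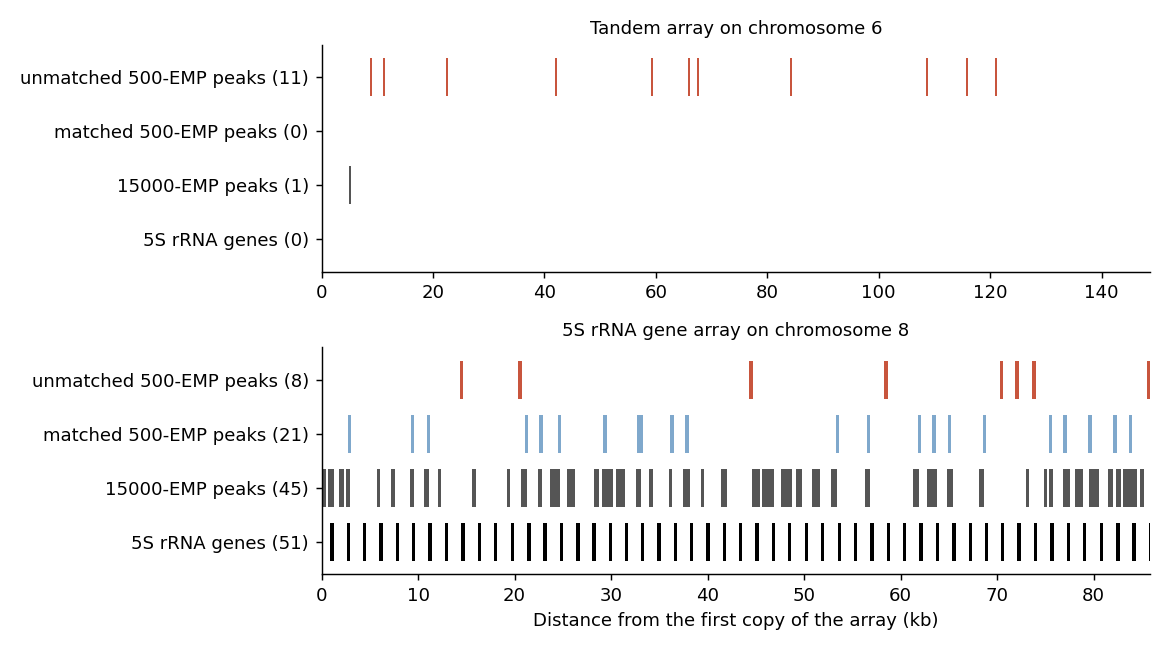
Positions of unmatched 500-EMP peaks (red), matched 500-EMP peaks (light blue), 15000-EMP peaks (dark grey) and 5S rRNA genes (black) along the tandem arrays of chromosome 6 (top) and chromosome 8 (bottom), as distance from the first copy in kb, with the narrowest features widened to be visible. On chromosome 6 all 11 peaks of the 500-EMP list stand beside 1 15000-EMP peak, while on chromosome 8 the 8 unmatched peaks lie among 45.

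Other runs lay in gene families and, like the arrays, were picked after their values had been seen. The Gbp cluster on chromosome 5, of interferon-induced GTPases, had 9 unmatched peaks among its 19 500-EMP peaks, beside 62 15000-EMP peaks in 207633 bp. A run at genes of the class I histocompatibility complex on chromosome 17, mostly H2-Q genes, had 7 among 29, beside 40 15000-EMP peaks. At Raet1e and H60b, ligand genes of NKG2D on chromosome 10, 3 of 4 unmatched peaks were repeated, with a median of 2 copies. Without the 2 arrays, 30 of the other 769 unmatched peaks (3.90%) were mostly repeated, still above the 1.40% of matched peaks.

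Across chromosomes, the unmatched share of the 500-EMP peaks ran from 5.88% on chromosome 12 (23 of 391, interval 3.95% to 8.67%) to 11.3% on chromosome 6 (59 of 522, 8.86% to 14.3%). On chromosome 6 it was 9.39% without the 11 peaks of the array (interval 7.16% to 12.2%). Chromosomes 16, 8 and 7 followed with 10.4%, 9.75% and 9.65%. The interval of chromosome 6 was the only one of the 19 that did not hold the 7.88% of all autosomes, and without the array its interval held that value.

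**Figure D5:**
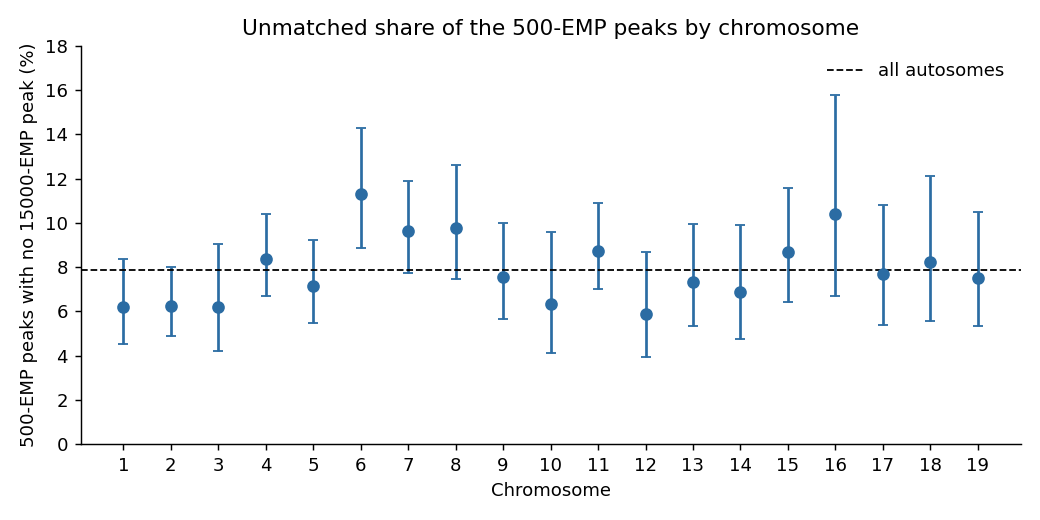
Share of the 500-EMP peaks with no 15000-EMP peak (y axis, %) on each of the 19 autosomes (x axis), with 95% Wilson intervals, and the share of 7.88% over all autosomes as a dashed line. Chromosome 6 is highest at 11.3% and chromosome 12 lowest at 5.88%.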

How the data were processed

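H3K27me3 CUT&RUN peak lists and annotated peak tables of 1 library from 500 EMPs and 1 from 15000 EMPs were used. Per the methods and the study's reporting summary, the authors aligned reads to mm10 with Bowtie2 and processed them with SAMtools. They called broad peaks with MACS2 against IgG at p 0.01 (500 EMPs) or 0.05 (15000 EMPs). The submitters' processing notes give the versions as Bowtie2 2.2.1, SAMtools 1.9 and MACS2 2.1.2, and the study's reporting summary lists another SAMtools version. No filter on reads that align to several places is stated. In the command lines printed with the study the thresholds stand with the opposite libraries, and the lists were taken as labelled. The deposited lists hold positions and no score, fold or coverage, so the depth behind each peak is unknown. The annotated tables, deposited by the authors, add a gene, a location category and a distance, and their starts and ends are 1 above those of the lists.

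Overlaps, distances, GC content and word counts were computed in Python (3.11.15) with numpy (2.4.6), pandas (2.3.3) and numba (0.67.0) on GRCm38.p6 and GENCODE vM21, and scripts were tested on simulated data. Gaps count the bases between peaks. Shares have 95% Wilson intervals. The members and gene lists were chosen with earlier results of these data known. Named were the 10 widest peaks on each side of 1 kb, peaks across a gene start, genes within 3 kb that the 15000-EMP table does not name within 3 kb, up to 4 genes per list, peaks at the threshold, the 5 farthest and the 5 densest runs. Alternatives concerned the overlap rule, the limits, the smallest width, the annotation and the word length. Some genes and sequences that these rules name are not reported here. IgG libraries were not analysed here beyond their use in peak calling.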

Additional observations from a re-analysis of the deposited data

Results flagged for a closer look

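Peaks on chromosome X were outside the comparison. Of its 221 peaks from 500 EMPs, 107 had no 15000-EMP peak (48.4%, interval 41.9% to 55.0%), against 7.88% of the autosomal peaks. Of these 107, 13 lay within 1 kb of 1 of the 310 peaks that the 15000-EMP list holds on X, and their median width was 137 bp. The libraries are 1 per cell number, so the difference between X and the autosomes has no replicate.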

How the results depend on the processing

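Of 42 values recomputed under alternatives for 12 results, 27 stayed within the interval of the reported value or, for counts, within 1.5 times, and 15 moved. The 788 unmatched peaks became 330 where a 15000-EMP peak within 1 kb counted as a match and 390 without peaks of the smallest width. The 58.1% within 1 kb became 43.5% at 500 bp, 72.2% at 3 kb, 79.9% at 10 kb and 33.1% with distances between centres. The median width became 256 bp without the smallest width and 176 bp where 50% of a peak had to be overlapped. With GENCODE protein-coding genes, 37.4% lay upstream, 47.6% inside and 13.8% downstream. The 24% within 3 kb of a gene became 9.77% at 1 kb (29.2% of matched peaks) and 18.5% by GENCODE TSS (46.4%). The 26 genes not named within 3 kb in the 15000-EMP table became 15 by GENCODE TSS. The share of positions with a repeated word of 76 bases, 5.50%, became 3.49% without the 2 repeat arrays, an alternative chosen after seeing the data. No paired analysis was possible because each cell number had 1 H3K27me3 library. Sequencing depth and alignment rate were lower for 500 EMPs per the study, and their part in which peaks were called was not tested.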
